A study of Mus musculus with 16 samples.

Results

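The regions described here are places in the genome of mouse jejunal epithelial cells where the wild-type (WT) library exceeded the NCoR1 knockout (KO) library for H3K4me3 and, on shared bases, also for histone acetylation. They were selected on measured values: a region of the WT-higher H3K4me3 list was a member when at least 1 of its bases lay in a region of the WT-higher H3K9ac or WT-higher H3K27ac list. Of 4166 WT-higher H3K4me3 regions, 609 (14.6%) met this rule and 3557 did not. H3K9ac was shared by 423 members and H3K27ac by 340, so that 154 members shared bases with both acetylation marks, 269 with H3K9ac only and 186 with H3K27ac only. Joined to the nearest protein-coding start within 50 kb of the summit, the members belonged to 520 genes, 2.40% of the 21693 genes considered.

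The cells came from C57BL/6 neonates at postnatal day 12. WT mice carried the label F/FUN, and KO mice, with NCoR1 deleted in the intestine, the label ΔIECUN. The letters UN were common to both labels, and their meaning, the promoter that drove the deletion and the number of animals behind a library are not given in the sources used here. There was 1 ChIP library per mark and genotype for 6 histone marks, beside 4 input libraries not analysed here. With single libraries the spread between replicates is unknown, so the values are descriptions of those libraries and none carries a test. Per library 23925163 to 32444815 tags were left after duplicates were removed. The H3K9ac libraries kept the smallest shares of their tags, 64.3% in WT and 56.0% in KO. The lists hold only differences between the genotypes, so neither the deletion of NCoR1 nor the labelled cell type could be checked against them. In a bulk sample, fewer cells of a type and less of a mark per cell cannot be told apart.

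NCoR1 is a corepressor that brings histone deacetylase HDAC3 to nuclear receptors and other transcription factors. H3K4me3 is laid down at active gene starts by the SET1 and MLL enzymes, many of which are drawn to stretches rich in unmethylated CG dinucleotides (CpG islands). H3K9ac and H3K27ac are placed by acetyltransferases such as GCN5, PCAF, CBP and p300 at active promoters, and H3K27ac also at active enhancers, where H3K4me1 is the usual methyl mark.

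Parts of 7 member regions at gene starts are printed because they show the range of base composition among members, from stretches dense in CG to stretches with almost none. The genes were chosen for high folds in all 3 marks (Rbfox3, Sema5a, Bzw1) or for lower RNA in the KO (Cttnbp2, Fstl4, Susd2, Thsd4). Each stretch lies inside the H3K4me3 region, outside every annotated exon and as near the summit as these limits allow. The sequences were read from the mm9 genome on the strand of the gene, 5′ to 3′, with CG dinucleotides in capitals.
Rbfox3: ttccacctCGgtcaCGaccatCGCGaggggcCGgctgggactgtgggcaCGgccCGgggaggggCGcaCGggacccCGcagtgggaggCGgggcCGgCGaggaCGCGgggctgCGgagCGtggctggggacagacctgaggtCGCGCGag
Sema5a: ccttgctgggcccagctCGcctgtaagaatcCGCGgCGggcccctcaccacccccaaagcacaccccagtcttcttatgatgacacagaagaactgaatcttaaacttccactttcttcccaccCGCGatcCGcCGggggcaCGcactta
Bzw1: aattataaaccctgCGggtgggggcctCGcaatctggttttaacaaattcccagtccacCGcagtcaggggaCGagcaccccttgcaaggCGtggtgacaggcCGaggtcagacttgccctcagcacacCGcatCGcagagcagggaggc
Cttnbp2: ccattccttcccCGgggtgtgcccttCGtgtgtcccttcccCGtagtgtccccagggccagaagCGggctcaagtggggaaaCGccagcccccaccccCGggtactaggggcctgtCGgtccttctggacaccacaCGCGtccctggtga
Fstl4: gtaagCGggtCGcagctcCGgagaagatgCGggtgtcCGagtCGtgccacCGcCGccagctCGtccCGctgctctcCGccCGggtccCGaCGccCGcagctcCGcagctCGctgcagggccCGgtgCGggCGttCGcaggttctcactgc
Susd2: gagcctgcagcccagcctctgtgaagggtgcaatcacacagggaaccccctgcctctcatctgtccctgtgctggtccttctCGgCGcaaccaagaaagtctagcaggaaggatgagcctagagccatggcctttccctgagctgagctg
Thsd4: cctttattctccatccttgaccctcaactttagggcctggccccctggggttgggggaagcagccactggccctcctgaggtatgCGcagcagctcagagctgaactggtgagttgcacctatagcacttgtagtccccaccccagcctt

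The Rbfox3 stretch (chr11:118770447-118770596, minus strand, intron) held 20 CG dinucleotides in 150 bases. The Fstl4 stretch (chr11:52578385-52578534, plus strand, intron) held 21. Intermediate numbers were found upstream of Sema5a (chr15:32173986-32174135, plus strand, 9 CG) and Bzw1 (chr1:58449407-58449556, plus strand, 8 CG) and in an intron of Cttnbp2 (chr6:18464288-18464437, minus strand, 9 CG). The intronic stretches of Susd2 (chr10:75106217-75106366, minus strand) and Thsd4 (chr9:60369223-60369372, minus strand) held only 2 and 1. Both CG-rich and CG-poor stretches thus occurred among the printed members with lower RNA.

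The sizes of the differences chose the members and are given as description only. A pair of quantities stands behind each fold: the pileup, which is the number of WT tags over the summit, and the local KO background, both scaled to the smaller library. The fold is their ratio after 1 is added to each. The median H3K4me3 pileup of the members was 82 tags in WT over a KO background of 38.5, with a median fold of 2.06 (lowest 1.37, highest 8.13). The other WT-higher H3K4me3 regions had a median pileup of 73, a KO background of 34.2 and a fold of 2.1. Members were longer, with a median of 215 bases against 185. The rule favours long regions, which have more bases to share.

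Members were not simply the H3K4me3 regions with the largest folds. Ordered by fold in 4 groups of nearly equal size, members made up 12.96, 17.4, 17.9 and 10.3% of the H3K4me3 regions from the lowest to the highest group. By length the share rose steadily, from 7.05% among regions of up to 161 bases to 23.0% among those of 238 bases or more. By pileup it was 7.52% in the lowest group, 22.2% in the third (76 to 109 tags) and 12.03% in the highest.

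In the acetylation lists the partner regions had smaller folds than those lists as a whole. The H3K9ac partners had a median fold of 2.38, against 2.80 over all 2151 WT-higher H3K9ac regions. The H3K27ac partners had 2.2, against 2.57 over all 2510. Of the H3K9ac list 19.7% met an H3K4me3 region, and of the H3K27ac list 13.4%. Among members the median distance between the H3K4me3 summit and the acetylation summit was 38 bases for H3K9ac and 40 bases for H3K27ac. Of a member's length, a median of 76.9% was shared with H3K9ac and 83.8% with H3K27ac. The rule demands shared bases and the regions are short, so this closeness and sharing are in part its product and are descriptions only.

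Members with larger H3K4me3 folds also had larger acetylation folds. Spearman's rank correlation was 0.53 for H3K9ac over 423 members and 0.48 for H3K27ac over 340. Where both acetylation marks were shared, their own folds had a rank correlation of 0.70 over 154 members. These are descriptions across regions that share base composition and a cutoff on q, and a region with few tags passes that cutoff only with a large fold. H3K4me3 fold and pileup were accordingly inversely related, with a rank correlation of -0.65 in both sets. H3K4me3 pileup was also inversely related to the acetylation fold, at -0.62 for H3K9ac and -0.57 for H3K27ac. The part of tag number in the relation between the folds was not tested.

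**Figure D1:**
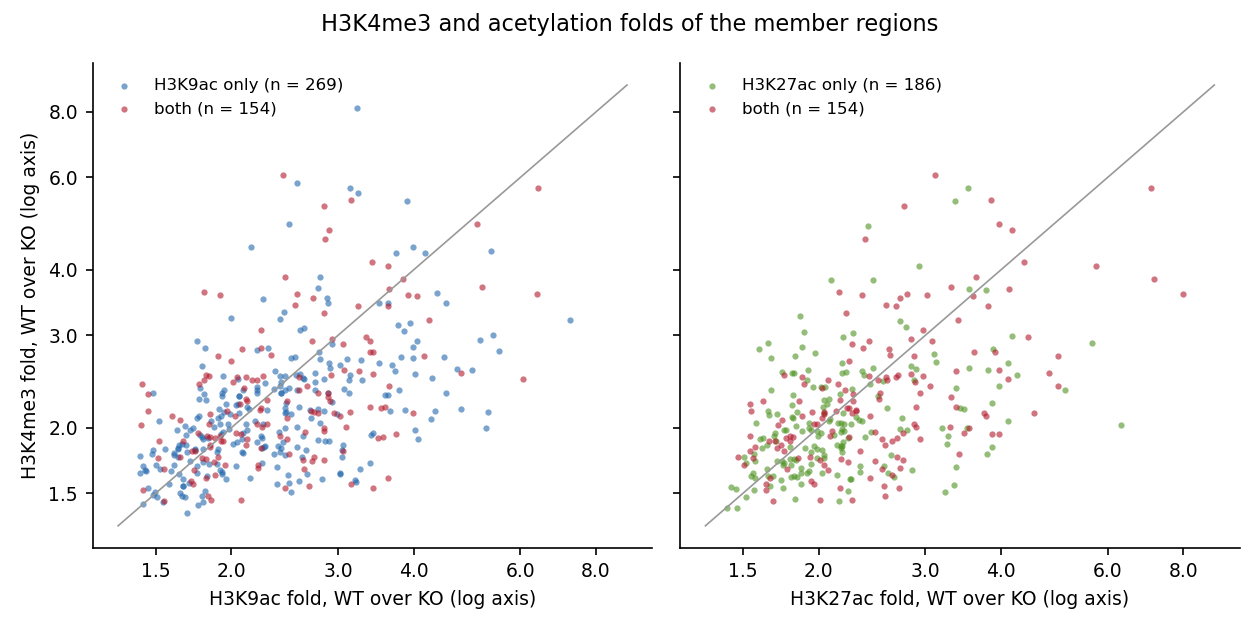
H3K4me3 fold (vertical, log axis) against H3K9ac fold (left) and H3K27ac fold (right) for each member, WT over KO, with the line of equal folds in grey. Most of the 423 and 340 points lie between folds of 1.5 and 4, and points of high H3K4me3 fold tend to have higher acetylation folds.

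At the edge of the rule, membership turned on a few bases. The members with the fewest shared bases were a region at Rcn1, a calcium-binding protein of the endoplasmic reticulum (3 bases, fold 2.12), a region 60792 bases from the claudin gene Cldn23 (5 bases, fold 2.53) and a region at the growth factor gene Fgf20 (11 bases, fold 1.51). Just outside were regions at Pclo, Atp12a and Mogat1, with gaps of 3, 9 and 17 bases and folds of 2.21, 2.1 and 2.14. The folds on either side of the edge overlapped. In all, 206 non-members (5.79%), those 3 included, had an acetylation region within 1 kb.

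Most members lay at gene starts. Summits were within 1 kb of a protein-coding start in 455 of 609 members (74.7%, 95% Wilson interval 71.1 to 78.0), at 424 genes, against 65.5% of the other H3K4me3 regions (63.9 to 67.0). These intervals cover counting error only. Of the remaining members 92 lay between genes, 41 in introns, 20 in exons and 1 on a contig outside the mm9 chromosomes. Of the 153 placed members away from coding starts, 30 were within 1 kb of another annotated transcript start. The difference in promoter share went with signal strength. Among regions of 43 to 75 tags 67.6% of members and 67.6% of the others were at promoters, and among those of 76 to 109 tags 84.3% and 84.6%. Among those of 110 tags or more it was 91.9% of 124 members (85.8 to 95.6) and 93.7% of 907 others (91.9 to 95.1). Members had the higher share, with intervals apart, only at 10 to 42 tags. There it was 35.4% of 79 members (25.8 to 46.4) and 21.3% of 972 others (18.8 to 24.0).

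At promoters the H3K4me3 summit lay just inside the gene. The median position was 169 bases downstream of the start for members and for the other regions alike. It was downstream in 371 of 455 members (81.5%) and in 78.7% of the others, and 307 members (67.5%) peaked 1 to 400 bases downstream. This is where the first nucleosomes after the start are usually found.

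**Figure D2:**
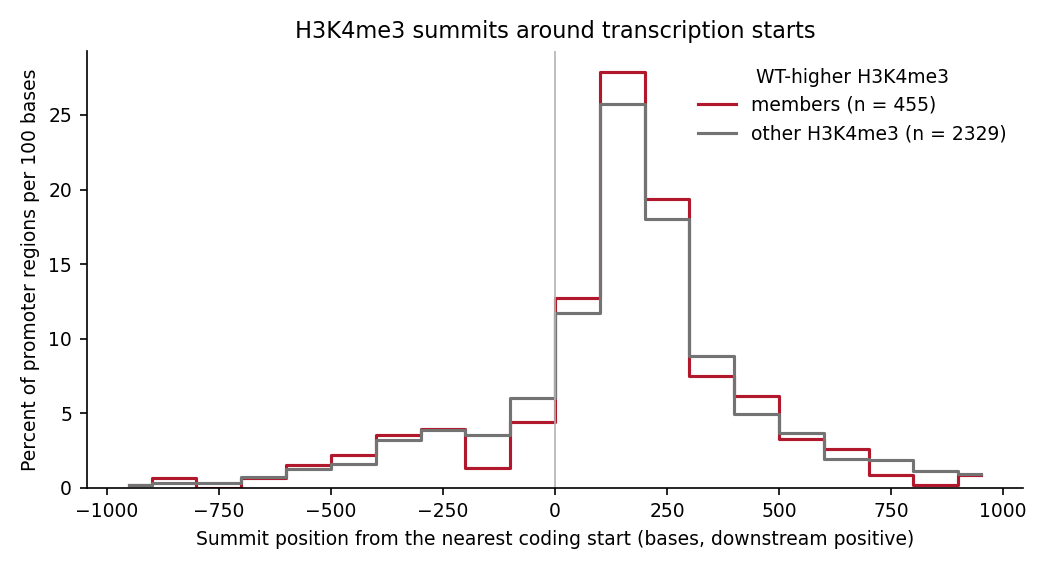
Percent of promoter H3K4me3 regions with a summit in each 100 bases (vertical) by position from the nearest coding start (horizontal, downstream positive), for 455 members and 2329 other WT-higher H3K4me3 regions. Both curves peak between 100 and 200 bases downstream, where 27.9% of the members lie.

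Base composition gave little to tell members from other H3K4me3 promoters. Over 501 bases around the summit the median GC content was 65.1% at promoters in both. The CpG ratio, observed CG over the number expected from the C and G content, was under 0.6 at 91 of 455 member promoters (20%, 16.6 to 23.9) and at 16.7% of the others (15.2 to 18.2). Away from promoters members were poorer in GC, with a median of 59.9%.

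Short motifs were counted in the 300 bases from 250 before the start, on both strands, for 424 member genes, 2163 genes at other H3K4me3 promoters and 21687 protein-coding genes. The GC box GGGCGG, bound by SP factors, was present in 73.1% of member promoters, 71.8% of other H3K4me3 promoters and 43.9% of all promoters. The TATA box TATAAA was present in 4.72, 5.13 and 13.5%. The nuclear receptor half-site AGGTCA was present in 9.67% of member promoters (7.21 to 12.9), 10.8% of other H3K4me3 promoters and 14.4% of all. AAGATGG, the core of the YY1 site, was present in 3.54% (2.16 to 5.75), 6.70 and 6.69%. A match is a description of letters and not a bound site. The CCAAT box CCAAT, the ETS core CCGGAA, the E-box CACGTG, the cyclic AMP element TGACGTCA, the TCF core CTTTGAT and the HNF4 core AAAGTCCA were found at member promoters in shares between 0.943% for the HNF4 core and 32.3% for the CCAAT box, and for each the interval of the members held the share at other H3K4me3 promoters. A start of another gene on the opposite strand lay within 1 kb upstream of 23 of the 424 member genes (5.42%, 3.64 to 8.01), against 7.26% and 8.70% in the same comparison groups.

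Members with both acetylation marks were ordered by the smallest of their 3 folds. Of the first 10, 2 lay at Tmem181b-ps and 2 far from Mki67, described below with their loci, and the others at Rbfox3, Arhgap44, Syde1, Sema5a, Amotl1 and Aldh4a1. Rbfox3 encodes the neuronal splicing factor known as NeuN. Its region at chr11:118770405-118770791, with a summit 342 bases downstream of the start, had 41 WT H3K4me3 tags over a KO background of 7.57. There the H3K9ac pileup was 27 over 4.51 and the H3K27ac pileup 27.8 over 6.26. The folds were 4.90, 5.09 and 3.97, so WT signal was several times the KO background in each mark, at low tag numbers. Further members of Rbfox3 lay at 11021 and 12214 bases inside the gene, with H3K4me3 folds of 3.06 and 5.30.

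Sema5a, a semaphorin of axon guidance, had H3K4me3 at 69 tags over 16.2 (fold 4.06), 278 bases upstream of its start. H3K9ac was 55 over 14.4 (3.62) and H3K27ac 62.5 over 10.1 (5.74). Amotl1, an angiomotin of cell junctions and Hippo signalling, had 72 tags over 19.4 for H3K4me3, 47 over 10.8 for H3K9ac and 42.7 over 11.1 for H3K27ac. All 3 of its folds were alike, at 3.57, 4.06 and 3.60. Syde1, a GTPase-activating protein, was equally even, with folds of 3.68, 3.64 and 4.12 over pileups of 53, 52 and 52.6 tags. Away from starts, a region 27741 bases downstream of the start of Arhgap44 (fold 3.85) had only 16 H3K4me3 tags but 63.5 H3K27ac tags over 8, and a region 6573 bases upstream of the proline catabolism gene Aldh4a1 had 24 (fold 4.13).

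The highest H3K4me3 folds did not belong to the highest signals. The top member, 11504 bases upstream of the oxysterol-binding protein gene Osbp, had a fold of 8.13 from 28 tags over 2.57 and shared bases with H3K9ac only. Next came a region in the neighbourhood of Prmt2, 33965 bases from its start (fold 6.07), and the promoter of Susd2 (5.87). Trpc5 (164499 bases away, 5.74), Neu4, a sialidase gene (5.73), and the peptide transporter gene Slc15a2 (5.61) rested on 16, 39 and 19 tags. Bzw1 and Trim71 stood out with more signal, 82 tags over 14.3 (5.44) and 57 over 9.72 (5.41). The Bzw1 region also had the highest acetylation pileups of these genes, 127 for H3K9ac and 160 for H3K27ac.

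**Figure D3:**
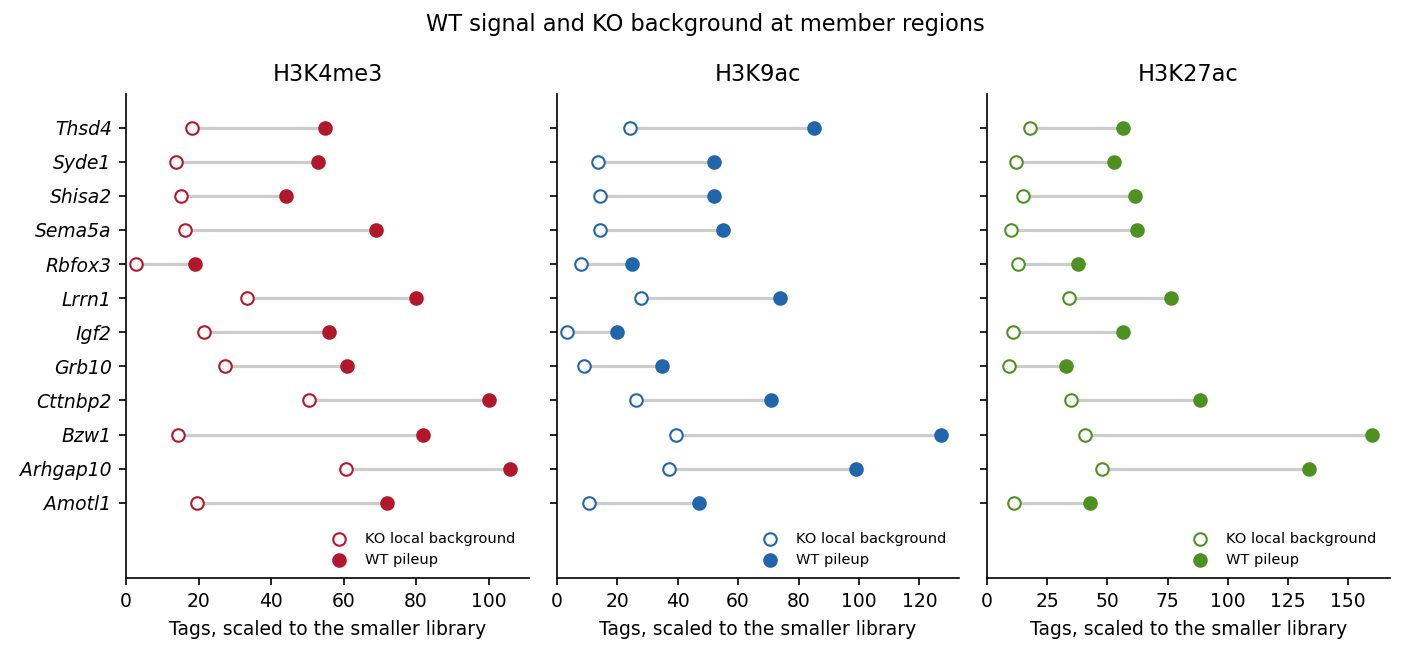
WT pileup (filled points) and KO local background (open points) in tags scaled to the smaller library, for H3K4me3, H3K9ac and H3K27ac, at the member region with both acetylation marks and the highest H3K4me3 fold of each of 12 genes. At Bzw1 WT lay at 82, 127 and 160 tags over KO values of 14.3, 39.6 and 40.8, and WT was higher in every pair, as the rule demands.

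Several genes held a row of members. Grouped within 50 kb, the 609 members fell into 539 loci, of which 489 held 1 member and 43 held 2. Shisa2, an inhibitor of FGF and WNT receptor maturation, had 4 members over 1.70 kb. Their H3K4me3 folds were 1.96, 2.05, 2.01 and 2.79 at 437, 683, 1139 and 1465 bases downstream of the start. The 2 farther ones also shared H3K9ac, with folds of 3.10 and 3.43, while the nearer ones shared H3K27ac only (2.17). Wnt5a, a non-canonical WNT ligand, had 3 members 1234 to 2808 bases downstream of the nearest start, with folds of 1.95 to 2.52. Grb10, Anpep and Rbfox3 also had 3 each, and Thsd4, Lrrn1, Padi3 and Prkar2b 2 each.

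**Figure D4:**
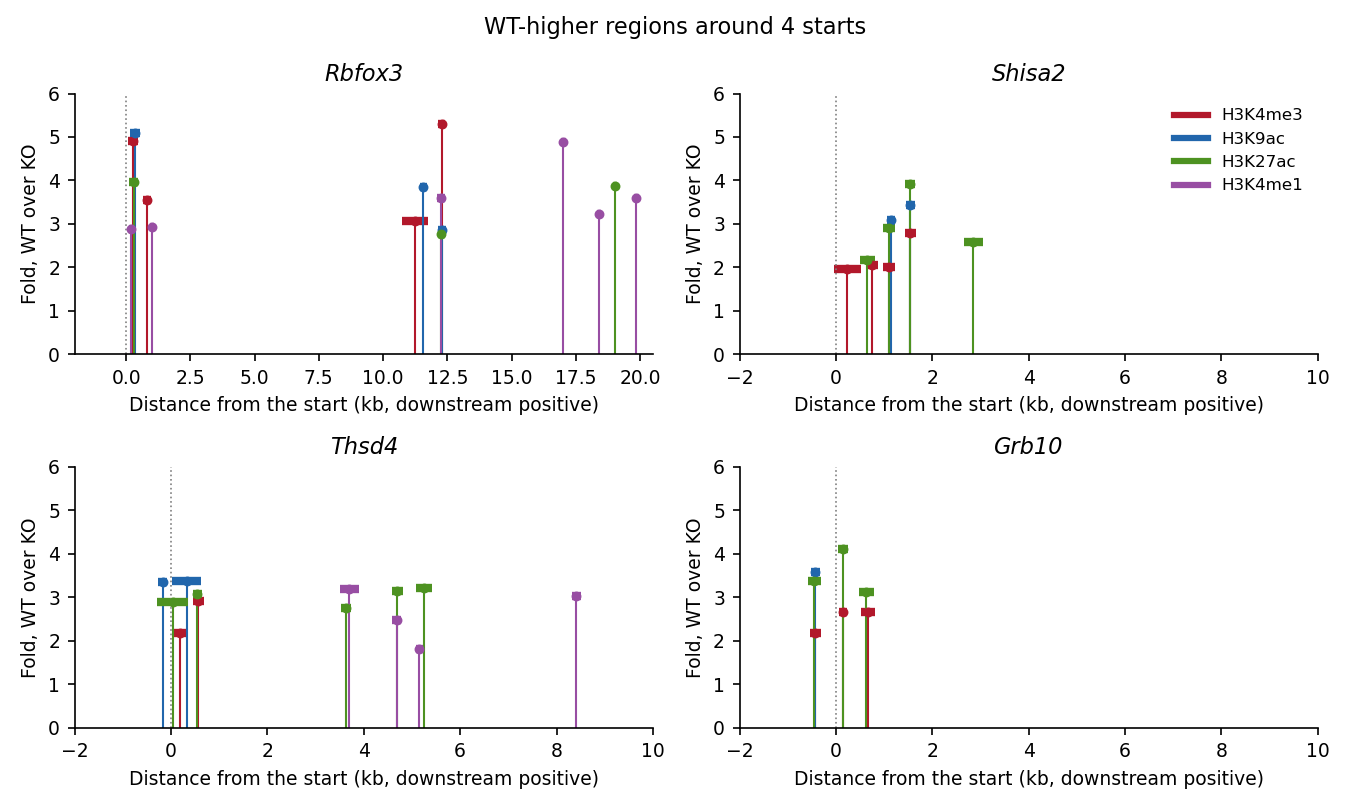
Fold, WT over KO (vertical), of every WT-higher H3K4me3, H3K9ac, H3K27ac and H3K4me1 region by distance from the start (horizontal, kb, downstream positive; horizontal strokes show region width) at Rbfox3, Shisa2, Thsd4 and Grb10. At Shisa2 the 4 H3K4me3 regions with folds of 1.96 to 2.79 lie within the first 2 kb, and Grb10 shows no H3K4me1 region.

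On chromosome 17, 2 loci held 18 members, among gene copies that are nearly identical, so the authors' aligner could split or misplace their reads and these values are uncertain. The first, chr17:6429293-6489446, held 10 members at Dynlt1b and Tmem181b-ps, with folds of 2.59 to 5.74. Over its 60.2 kb there were WT-higher regions of all 6 marks: 32 of H3K4me1, 12 of H3K4me3, 27 of H3K9ac, 20 of H3K27ac, 7 of H3K27me3 and 1 of H3K9me3, and no KO-higher region of any mark analysed. The second, chr17:15098464-15178428, held 8 members at Phf10, Tcte3 and predicted genes, with folds of 1.61 to 2.42. It had WT-higher regions of the 4 active marks and of neither repressive mark. The part of gene copy number in these values was not tested.

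H3K4me1 played no part in the rule. WT-higher H3K4me1 shared bases with 17 of 609 members (2.79%, 1.75 to 4.42), with 1.51% of all WT-higher H3K4me3 regions and with 1.29% of the others (0.971 to 1.72). Without the 2 chromosome 17 loci the members' share was 9 of 591 (1.52%, 0.803 to 2.87), and its interval held the share of the others. Beside the members it was more frequent: a WT-higher H3K4me1 region lay within 10 kb of 91 members (14.9%, 12.3 to 17.99) and of 6.92% of the others (6.13 to 7.80). Without the 2 loci this was 12.7% (10.25 to 15.6). By class, with the 2 loci kept in, it was 26.0% for members with both acetylation marks (19.7 to 33.4). It was 10.8% with H3K9ac only and 11.8% with H3K27ac only, and class shares without the loci were not computed. Without those loci it was 31.5% of members against 8.85% of others at 10 to 42 tags, 12.1 against 9.76% at 43 to 75, 10.1 against 4.34% at 76 to 109, and 6.90 against 4.41% above. Members had the higher share in all 4 groups, and the difference was not tested.

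All 4 active marks were WT-higher on shared bases at 9 members. They were 2 regions of Rbfox3, 1 at the start of Fam5c, a neural gene of the BRINP family, 4 in the chromosome 17 loci, and 2 far from any start, 291687 and 344539 bases from Mki67. The Fam5c region had folds of 2.93 for H3K4me3, 2.71 for H3K9ac, 2.42 for H3K27ac and 2.63 for H3K4me1. The 2 far regions had only 20 and 18 H3K4me3 tags, with H3K27ac folds of 3.31 and 7.997. Of the repressive marks, WT-higher H3K27me3 shared bases with 2 members (0.328%, 0.0901 to 1.19) and with 0.394% of the others (0.235 to 0.660). WT-higher H3K9me3 shared bases with 1 member (0.164%, 0.0290 to 0.924) and with 0.675% of the others (0.454 to 1.002), and the intervals overlap for both marks. None of the 609 members met a KO-higher H3K9ac or H3K27ac region, which the rule largely fixes, since their bases were chosen for WT-higher acetylation.

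RNA was available for the genes that the authors' deposited table names beside WT-higher H3K4me1 regions, 1296 genes after matching, of which 85 had a member region. The tissue of the RNA samples and the tool of the RNA test are not given in the sources used here. The table is a sample of genes near H3K4me1 differences and not of all genes. By the authors' deposited table, RNA was lower in the KO at an FDR under 0.05 for 25 of the 85 member genes (29.4%, 20.8 to 39.8) and higher for 0. Over all genes of the authors' deposited table the shares were 10.5% lower and 5.79% higher. Genes with another WT-higher H3K4me3 region, 250 in all, fell into 2 sets. Where WT-higher acetylation lay near the same gene without shared bases, 13 of 71 were lower (18.3%, 11.02 to 28.8) and 0 higher in the authors' deposited table, so an absence of higher genes was not limited to members. With H3K4me3 alone, 17 of 179 were lower (9.497%, 6.01 to 14.7) and 10 higher in the authors' deposited table. Genes with WT-higher acetylation but no H3K4me3 region had 41 of 225 lower (18.2%) and 3 higher in the authors' deposited table. The median log2 fold change was -0.22 for member genes, -0.13 and -0.06 for those 2 sets in the same order, -0.17 for the genes with acetylation only and -0.06 over the authors' deposited table. The sets differ in size and were not compared by a test.

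By the authors' deposited table, genes with a member of both acetylation marks were lower in 17 of 34 cases (50.0%, 34.1 to 65.9), against 7 of 30 with H3K9ac only (23.3%, 11.8 to 40.9) and 1 of 21 with H3K27ac only (4.76%, 0.846 to 22.7). The median log2 fold changes in the authors' deposited table were -0.33, -0.16 and -0.09. Member regions at promoters gave 22 of 68 genes lower in the authors' deposited table (32.4%), and genes with members only farther away 3 of 17 (17.6%). Genes of the 2 chromosome 17 loci added none to the 25. In the classes by acetylation mark, a gene with several members was counted once. It was placed under both marks if any member had both, and otherwise under H3K9ac only if any member had H3K9ac. These counts over genes were not compared by a test.

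**Figure D5:**
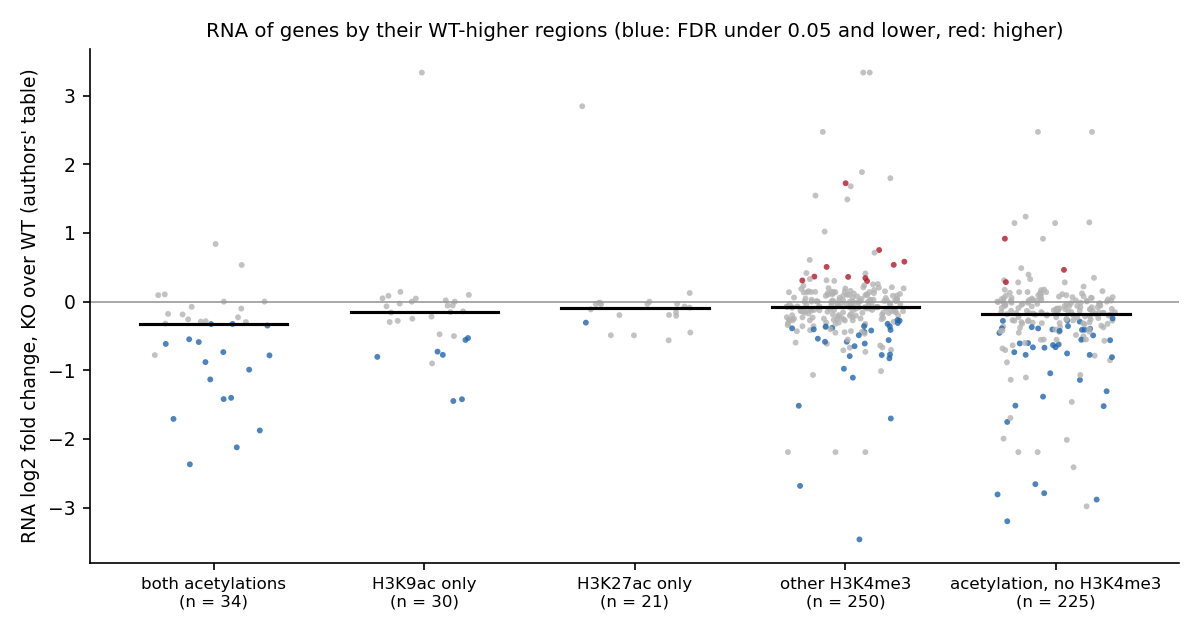
RNA log2 fold change, KO over WT, from the authors' deposited table (vertical) for genes in 5 classes of WT-higher regions (horizontal), 1 point a gene, blue where lower and red where higher at an FDR under 0.05, with the median as a bar. No member gene is red, and the 34 genes with both acetylation marks have the lowest median, -0.33.

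Rbfox3 had the most negative RNA change of the member genes, a log2 fold change of -2.37 in the authors' deposited table (FDR 2.63e-14). Padi3, a peptidylarginine deiminase, followed at -2.12 (1.18e-05 in the authors' deposited table). Its members lay 3551 and 3945 bases upstream, with H3K4me3 folds of 2.33 and 3.07 and H3K27ac at 53.6 tags over 17.5 and 124 over 41.0. Serpina1e, an alpha-1-antitrypsin gene, was at -1.88 in the authors' deposited table (FDR 5.14e-81), with promoter H3K4me3 of 43 tags over 11.1 (fold 3.63). It belongs to a family of near-identical copies, as does Serpina1a (-0.73 in the authors' deposited table), so reads of the copies could be split and both are uncertain.

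Cttnbp2, a cortactin-binding regulator of the actin cytoskeleton, was at -1.71 in the authors' deposited table (FDR 5.17e-32). At its promoter WT H3K4me3 was 100 tags over a local KO background of 50.5 (fold 1.96). H3K9ac was 71 over 26.2 and H3K27ac 88.3 over 35. Susd2, a sushi-domain membrane protein, was at -1.45 in the authors' deposited table (FDR 3.29e-44), with 33 H3K4me3 tags over 4.80 and H3K9ac at 48 over 18.1. Fstl4, a follistatin-like protein, was at -1.42 (FDR 0.000195 in the authors' deposited table), with 64 tags over 26.5.

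Shisa2, with its row of 4 members, was at -1.42 in the authors' deposited table (FDR 5.19e-24). Lrrn1, a leucine-rich repeat protein of the nervous system, was at -1.40 in the authors' deposited table (FDR 2.23e-35), with 80 H3K4me3 tags over 33.3 at its start and 31 over 13.7 farther in. Thsd4, an extracellular matrix protein of the ADAMTS-like family, was at -1.13 in the authors' deposited table (FDR 4.87e-25). Its 2 members had 78 tags over 35.1 and 55 over 18.2, and H3K9ac at 85 over 24.4 covered both. Arhgap10, a GTPase-activating protein, was at -0.99 in the authors' deposited table (FDR 4.93e-16), with 106 tags over 60.7 (fold 1.73). The highest H3K4me3 fold of a gene thus ran from 1.73 (Arhgap10) to 5.87 (Susd2) among these 10 genes.

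Of 16 gene lists, 10 had no gene with a member region: stem cell and WNT (0 of 22 matched genes), enterocyte identity (0 of 21), suckling (0 of 18), LXR and FXR (0 of 23), secretory cells (0 of 28), leukocytes (0 of 16), stroma (0 of 20), ribosome biogenesis (0 of 20), adhesion and signalling (0 of 19) and the NCoR and SMRT complex (0 of 6). The other 6 had 1 or 2, beside the 2.40% of all genes, and at these sizes the counts do not set any list apart. Each count covers the listed genes only: the WNT ligand gene Wnt5a, outside the stem cell and WNT list, had 3 members. None of the markers on the leukocyte and stromal lists lay at a member, although 1 and 2 of them had some WT-higher H3K4me3 region. This holds for the listed genes only, since the mesenchymal factor Foxf1a, on the Polycomb list, had a member. The part of leukocytes and stromal cells in the signal was not tested.

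The imprinted list had the most, 2 of 17 genes. Igf2, the fetal growth factor, had a member 464 bases downstream of a start with 56 H3K4me3 tags over 21.4 (fold 2.55), H3K9ac at 20 over 3.38 (4.79) and H3K27ac at 56.6 over 11 (4.80). Grb10, an adaptor that restrains insulin and IGF signalling, had 3 members, with H3K4me3 at 61 over 27.4, 54 over 19.7 and 35 over 12.5 and H3K27ac folds of 3.37, 4.11 and 3.1196. In both genes the acetylation folds exceeded the H3K4me3 folds.

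Of the adult enterocyte list 1 of 15 genes was found, the brush border aminopeptidase Anpep, with folds of 1.84 to 2.11 in 3 regions. Of the PPAR list it was 1 of 29, the acyl-CoA synthetase Acsl5, which had the highest H3K9ac pileup among members, 204 tags over 124 (fold 1.64). Of the proliferation list Cdk1 (1 of 20) was assigned only through a region 46108 bases upstream (fold 1.74). From the Polycomb list came Foxf1a, a mesenchymal forkhead factor (fold 2.15, with H3K9ac at 19 tags over 3.61). Of the H3K4 and acetylation enzymes 1 of 18 was found, the H3K4 methyltransferase Mll1 (fold 1.48).

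Some further genes were noticed only after their values had been seen. Antigen-presenting and immune ligand genes included Cd1d1 (fold 1.78), Cd1d2 (4.30), H2-Q7 (1.8) and H60b (1.71), all at promoters and all with H3K9ac only, and H2-T3, whose 2 members lay 15479 and 25388 bases from its start. Several belong to families of similar copies and are uncertain for that reason. Bmp4 had 2 members with H3K9ac, and its RNA did not pass the threshold in the authors' deposited table (log2 fold change 0.14, FDR 0.61). The same held for Wnt5a (-0.23, FDR 0.24 in the authors' deposited table). The sterol synthesis genes Cyp51 (fold 1.52, H3K27ac), Lss (2.06, H3K9ac) and Hsd17b7 (2.06, H3K27ac) had 1 member each at the start.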

How the data were processed

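Per the labels' protocols, mm9 was the genome used for alignment. Tools listed without roles in the submitters' processing notes were Bowtie2 (2.2.9), HOMER (3.12), CASAVA (1.8.2) and MACS2 (2.1.1), whereas the file headers name MACS 2.0.10.20130419. Per the file headers, regions were called at a q cutoff of 0.05 against the other genotype's library, with 1 tag kept per position and the larger library scaled down. The authors deposited a pileup signal, a fold (ratio) and the −log10 p-value and q-value of each region. The KO background was computed as the pileup plus 1, divided by the fold, minus 1. The Poisson −log10 p recomputed from it differed from the deposited one by at most 8.71e-05.

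RNA values were the authors' log2 ratios with an FDR (adjusted p-value), deposited with the H3K4me1 list and read as KO over WT from the column's naming. Another 12 columns of per-library values were not used. The KO H3K4me1 and KO H3K27me3 files repeat the WT lists, which left 10 of 12 lists. No region lay on chromosome 18, and genes on chromosomes 18 and Y were not considered.

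Regions were joined to GENCODE M1 protein-coding genes (mm9) by the nearest start within 50 kb of the summit. Python 3.11.15, pandas 2.3.3 and scipy 1.17.1 were used, and the overlap code was tested on simulated regions. With 1 library per group no test was possible. The members, gene lists, rule for named genes and alternatives were chosen with earlier results of these data known. Genes named were those with the 10 highest H3K4me3 folds, the 10 highest least folds over 3 marks, the 10 largest RNA changes, up to 4 per gene list, those with 4 active marks, and 3 on each side of the rule's edge, and 1 of them is not reported here. Sequences printed came from the genes with high least folds or RNA changes, outside multicopy families and with at least 100 bases free of exons, and 7 of 10 such stretches were chosen after they had been seen.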

Additional observations from a re-analysis of the deposited data

How the results depend on the processing

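Of the alternatives, 11 moved a result by more than its counting interval, or its count by more than 1.5 times, and 41 did not. Requiring a −log10 q of at least 5 in every list left 147 members, with a median H3K4me3 fold of 2.39 and a median GC content of 63.5%. Requiring a fold of at least 3 left 38 members, of which 31.6% were at promoters and 7.89% shared bases with WT-higher H3K4me1. Their median fold was 3.77 and their median GC content 58.3%. The H3K27ac list alone gave 340 members. A promoter limit of 2.5 kb raised the promoter share to 78.8%. Leaving out the 2 chromosome 17 loci, an alternative chosen after seeing the data, lowered the H3K4me1 share to 1.52%. The share of member genes with lower RNA stayed within its interval in all 11 alternatives run on it (27.1 to 38.7%), down to 1 of 3 genes at a fold of at least 3. The stricter settings keep fewer regions by design, and what moved the other values was not tested. Replicates could not be left out, because each mark and genotype had 1 library. No paired analysis was possible because the result comes from no test. Low tag numbers limit the members with the highest folds.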
